A study of Mus musculus with 2 samples.

Results

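Transcripts of 10 mast cell genes were compared between the skin of mice with mite-induced dermatitis that did or did not receive recombinant ZAG. The genes encode the histamine-forming enzyme (Hdc), 5 granule proteases (Tpsb2, Tpsab1, Cpa3, Mcpt4 and Cma1), 2 chains of the high-affinity IgE receptor (Fcer1a and Ms4a2), the stem cell factor receptor (Kit) and the receptor Mrgprb2. They were taken by gene symbol from the deposited array table, where each had 1 probe with that symbol alone, so all 10 were measured among 22180 genes. Both groups were females of NC/Nga, an inbred mouse strain that develops dermatitis readily, which entered at 6 weeks of age and whose dorsal skin was sampled at 13 weeks. Dermatitis was induced in both with an ointment of Dermatophagoides farinae body extract, applied 2 times a week for 6 weeks. The control group, labelled control, received the ointment alone as far as the labels say, and the ZAG group was also treated on the skin with recombinant zinc-alpha-2-glycoprotein (ZAG), 2 times a week for 6 weeks and at 1 µg/mL. Mice without dermatitis were not analysed here. The series design text gives 3 mice per group, while the table has 1 column per group, and no source used here says whether a column is 1 mouse, a pool or a mean.

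Mast cells of the skin are tissue-resident cells that depend on stem cell factor acting through Kit. Their granules hold histamine, made from histidine by the enzyme that Hdc encodes, together with tryptases, chymases and carboxypeptidase A3 bound to heparin. Cross-linking of IgE on the high-affinity receptor releases them, and Mrgprb2 releases them without IgE in response to peptides and other cationic compounds. Mast cells are known for their part in itch and allergic inflammation. Hdc is also expressed by basophils and by some neutrophils and other myeloid cells, and Kit by melanocytes, so neither is particular to mast cells.

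Promoters, here the 250 bases before and 50 bases after an annotated transcription start, were found in RefSeq's table (GRCm38.p6) for 8 of the 10 genes. Tpsb2 and Tpsab1 had no entry and are named only. The promoters of Hdc and of 4 genes from the protease and IgE receptor groups are printed because these groups are compared with Hdc in what follows, and because mast cell genes are known targets of the factor GATA2. Capitals mark each match to GATA on either strand, where the reverse strand reads TATC. The positions are chr2:126618629-126618928, minus strand for Hdc, chr3:20242132-20242431, minus strand for Cpa3, chr14:56062261-56062560, minus strand for Mcpt4, chr1:173227180-173227479, minus strand for Fcer1a and chr19:11623670-11623969, minus strand for Ms4a2. Each sequence reads 5′ to 3′ in the direction of transcription.
Hdc: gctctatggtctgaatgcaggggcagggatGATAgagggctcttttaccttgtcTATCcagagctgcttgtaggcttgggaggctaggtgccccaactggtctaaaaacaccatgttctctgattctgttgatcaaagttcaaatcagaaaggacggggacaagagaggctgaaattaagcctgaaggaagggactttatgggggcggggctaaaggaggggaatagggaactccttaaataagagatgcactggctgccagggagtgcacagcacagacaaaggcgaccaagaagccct
Cpa3: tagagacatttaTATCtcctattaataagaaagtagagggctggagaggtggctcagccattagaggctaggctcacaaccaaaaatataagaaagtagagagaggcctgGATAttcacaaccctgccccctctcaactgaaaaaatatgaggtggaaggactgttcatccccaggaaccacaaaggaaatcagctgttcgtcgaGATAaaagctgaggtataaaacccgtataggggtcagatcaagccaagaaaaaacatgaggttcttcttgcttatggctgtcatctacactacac
Mcpt4: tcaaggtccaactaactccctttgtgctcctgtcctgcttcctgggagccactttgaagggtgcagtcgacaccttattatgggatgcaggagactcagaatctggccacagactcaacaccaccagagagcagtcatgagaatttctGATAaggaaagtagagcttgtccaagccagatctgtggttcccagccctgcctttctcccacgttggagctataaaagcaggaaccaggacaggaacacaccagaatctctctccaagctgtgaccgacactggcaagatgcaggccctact
Fcer1a: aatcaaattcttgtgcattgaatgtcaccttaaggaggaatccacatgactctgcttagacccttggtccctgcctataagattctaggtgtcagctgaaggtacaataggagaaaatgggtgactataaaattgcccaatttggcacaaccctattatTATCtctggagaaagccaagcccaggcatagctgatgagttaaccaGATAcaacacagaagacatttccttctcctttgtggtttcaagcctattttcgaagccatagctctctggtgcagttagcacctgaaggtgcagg
Ms4a2: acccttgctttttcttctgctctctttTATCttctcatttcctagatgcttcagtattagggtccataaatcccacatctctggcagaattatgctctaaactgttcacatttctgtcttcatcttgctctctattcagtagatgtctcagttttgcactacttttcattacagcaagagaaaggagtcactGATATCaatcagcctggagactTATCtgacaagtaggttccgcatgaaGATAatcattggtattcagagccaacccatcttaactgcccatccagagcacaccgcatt

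GATA was present in the promoters of 7 of these 8 genes, with 2 matches in Hdc, 3 in Cpa3, 1 in Mcpt4, 3 in Cma1, 2 in Fcer1a, 5 in Ms4a2 and 1 in Mrgprb2, where matches on opposite strands may overlap. Kit, with 2 listed start sites a few bases apart, had 0. The word is short and common, and 57.9% of the 32851 promoters in the table hold it. The hexamer CACGTG, searched on both strands as the palindrome it is, was in 0 of the 8 genes' promoters and in 7.15% of all promoters. CATGTG, or CACATG on the other strand, was in 1 of 8, that of Fcer1a, and in 14.2% of all. TATAAA, or TTTATA, was in 3 of 8 (Cpa3, Mcpt4 and Fcer1a) and in 13.6% of all.

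Of the 10 genes, 9 were lower in the ZAG-treated skin, against 47.9% of all 22180 genes. Hdc had the lowest difference of the 10. Values are deposited log2 expression levels, so a difference of -1 is a 2-fold lower level. The background gauge was set at 3.16, a log2 level that 95% of 1390 odorant and pheromone receptor genes, read here as silent in skin, did not exceed in their mean over the arrays. For a gene under the gauge on 1 array, the gauge stood in for the missing level and the fold is written as a bound. With that floor 2 of the 10, Hdc and Tpsab1, were at least 2-fold lower, against 0.609% of all genes. By 1.5-fold or more, 6 of the 10 were lower, against 2.79% of all genes. Of all genes, 8125 were below the gauge on both arrays and could not reach either threshold, while 0 of the 10 were. The 135 genes at 2-fold and 618 at 1.5-fold thus lie among the 14055 others. Their median log2 difference was -0.64, and that of all genes 0.01. With 1 array per group there is no replicate error and no test, and every difference describes these arrays alone. In bulk skin, fewer mast cells and less RNA per mast cell cannot be told apart.

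**Figure D1:**
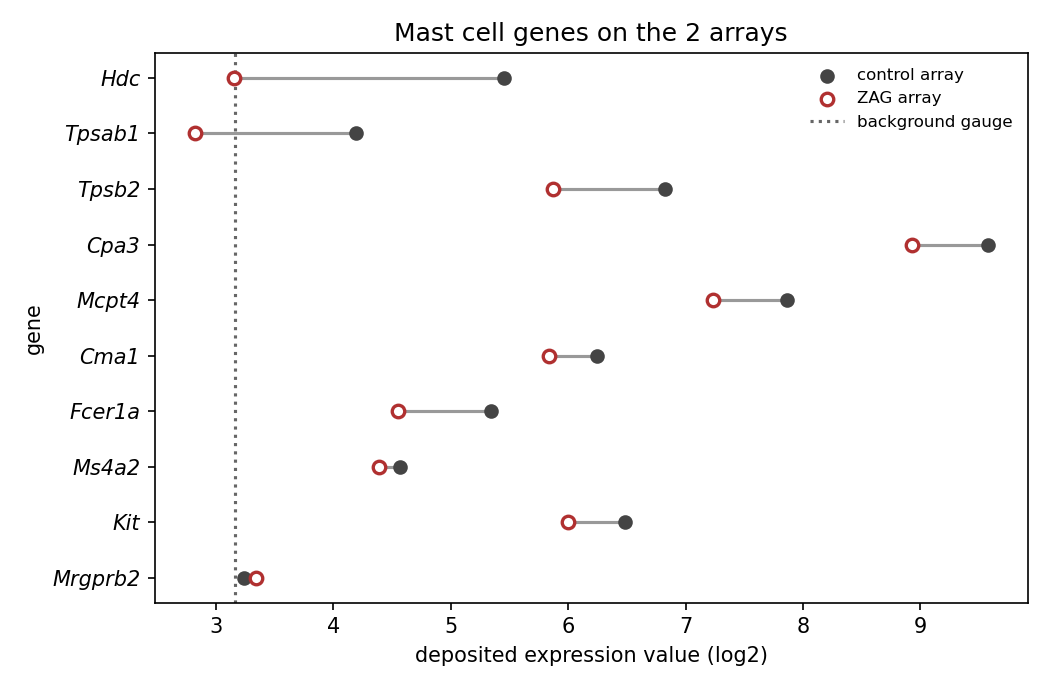
Deposited log2 level of each of the 10 genes on the control array (filled circles) and the ZAG array (open circles), with the background gauge as a dotted line. The ZAG value lies to the left of the control value in 9 genes, the gap is widest for Hdc, and the ZAG values of Hdc and Tpsab1 lie below the gauge of 3.16.

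Hdc read 5.46 (log2 level) on the control array and 3.16 on the ZAG array. The latter value is just under the unrounded gauge, so the transcript was measured in control skin and was at background level with ZAG. The difference of -2.30 is therefore given as at least 4.90-fold lower. The bound depends on the gauge, and with the 99th percentile of the receptor genes (4.10) as floor Hdc was at least 2.56-fold lower.

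The granule proteases were lower together and by less. Cpa3, the gene of carboxypeptidase A3, which trims peptides in the granule, had log2 levels of 9.57 in control and 8.93 with ZAG. This is 1.57-fold lower, and both values are far above the gauge. The chymase gene Mcpt4 was at 7.86 and 7.24, or 1.54-fold lower, so the log2 difference of Cpa3 minus that of Mcpt4 was -0.02. Cma1, the gene of the chymase also called mouse mast cell protease 5, was at 6.24 and 5.84. Its 1.32-fold lower level was the smallest difference among the 5 proteases.

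The tryptases had the largest differences among the proteases. Tpsb2, the gene of the tryptase also called mouse mast cell protease 6, was at 6.83 in control and 5.87 with ZAG, 1.94-fold lower. Tpsab1, the gene of mouse mast cell protease 7, was at 4.20 and 2.82. The latter is below the gauge, so it was at least 2.05-fold lower, a bound that shrank to 1.07-fold with the 99th percentile as floor. RefSeq's table of the C57BL/6J reference lists Tpsab1 as a transcribed pseudogene, and its state in NC/Nga was not analysed here. Probe sequences were not used, so reads of near-identical tryptase or chymase copies by 1 probe cannot be told apart.

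Over the 5 proteases the log2 differences ran from -1.38 (Tpsab1, before any floor) to -0.41, with a median of -0.65 and an SD across genes of 0.38. Genes are not replicates, and that SD describes only how unequal the proteases were. The log2 difference of Hdc minus the protease median was -1.65. Minus that of Tpsab1, the lowest protease, it was -0.92, but the ZAG values of both genes are under the gauge, so their order is not settled. With levels raised to the gauge first, the gap between Hdc and the protease median was -1.64, and with the 99th percentile gauge it was -0.73. Put as shares of the control level, Hdc with ZAG was at 20.3% before any floor, while Cpa3 was at 63.8%, Mcpt4 at 64.9%, Tpsb2 at 51.6% and Cma1 at 75.5%.

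The tryptase and chymase genes lie in 2 clusters, while Cpa3 lies apart on chromosome 3. In RefSeq's gene order Tpsab1, Tpsb2 and the gamma tryptase gene Tpsg1 are neighbours on chromosome 17. Tpsg1 was below the gauge on both arrays (2.74 and 3.01). On chromosome 14, 6 genes or pseudogenes are listed between Cma1 and Mcpt4, all of them measured. Over the 6, values were lower with ZAG in 2 and higher in 4, and 3 stayed under the gauge on each array. The mucosal mast cell protease genes Mcpt1 (1.78 and 2.08) and Mcpt2 (1.66 and 1.83) are among those below the gauge. In the list of 9 other protease genes of mast cells, basophils and killer cells, 7 were below the gauge on both arrays. The granzyme gene Gzmb had 3.22 in control and 2.86 with ZAG, and the chymase gene Cma2 had 2.94 and 3.23. Cpa3, Mcpt4, Cma1 and Tpsb2, genes of connective tissue mast cells, were thus read well above the gauge on both arrays, and the mucosal ones were not.

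The IgE receptor chains differed in unequal measure. Fcer1a, the gene of the alpha chain that binds IgE, was at 5.34 in control and 4.55 with ZAG, 1.73-fold lower. Ms4a2, the gene of the beta chain that amplifies the signal, was at 4.57 and 4.39. Its log2 difference of -0.18 is smaller than the SD of 0.244 between probes of 1 gene, a scale for probe error over 591 genes with several probes and not for differences between mice. The log2 difference of Fcer1a was lower than that of Ms4a2 by 0.61 (-0.61). The third chain of the receptor is encoded by Fcer1g, which myeloid cells share with mast cells, and it was at 7.98 in control and 7.20 with ZAG, 1.71-fold lower. With Hdc held at the gauge, its log2 difference minus that of Fcer1a was -1.50 and minus that of Ms4a2 -2.11, and with the 99th percentile gauge these gaps were -0.57 and -1.18.

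Kit had log2 levels of 6.49 in control and 6.00 with ZAG, 1.41-fold lower. The log2 difference of Hdc, held at the gauge, minus that of Kit was -1.80, and it was -0.87 with the 99th percentile gauge. Melanocytes also carry Kit, and in the melanocyte list 8 of 11 genes were higher with ZAG, with a median log2 difference of 0.25 and a mean level of 5.45 in control and 5.67 with ZAG. The melanosome gene Mlana was 0.80 higher and the transporter gene Slc45a2 0.46 higher. Oca2 had -0.24 and Sox10 -0.20, both within the SD between probes of 1 gene. Kit was thus lower while most melanocyte genes were higher, and the part of melanocytes in the Kit value was not tested. Mrgprb2 was at 3.24 and 3.34. Both values are above the gauge by 0.078 and 0.18, its difference of 0.10 is within the SD between probes of 1 gene, and it is the only member with a higher value. Under the 99th percentile gauge both of its values lie below background.

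**Figure D2:**
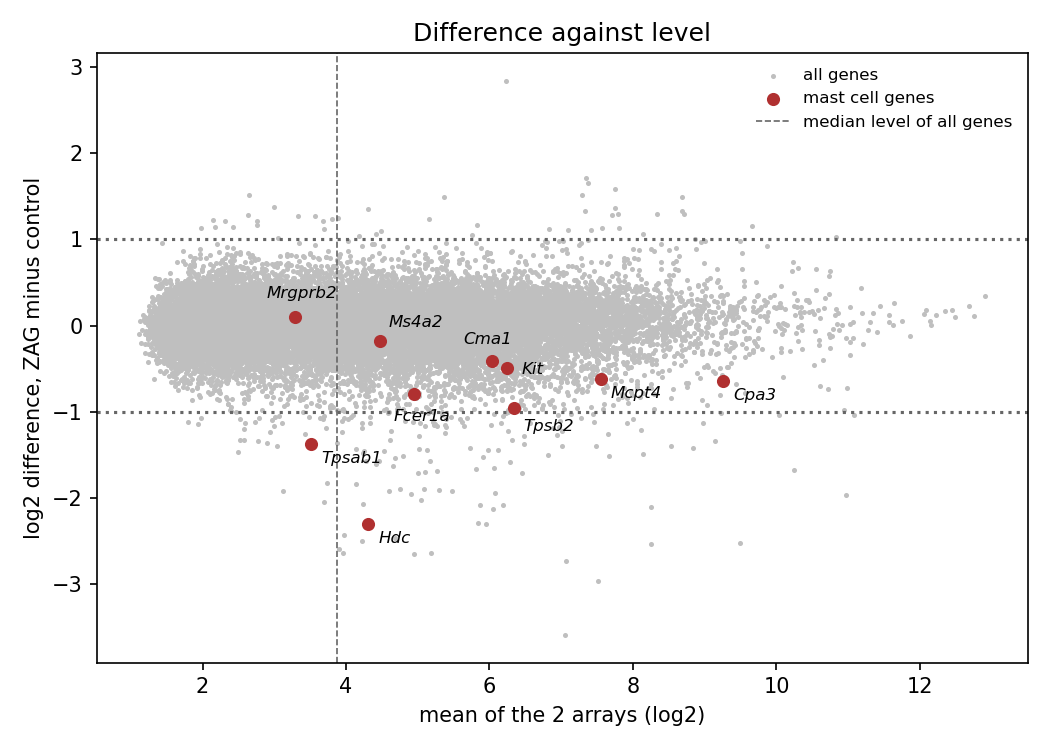
Log2 difference (ZAG minus control) against the mean log2 level of the 2 arrays for all 22180 genes (grey) and the 10 mast cell genes (red), with dotted lines at 2-fold and a dashed line at the median level of 3.87. Hdc lies at -2.30, Tpsab1 at -1.38 to the left of the dashed line, and the 7 other lower genes lie between -0.95 and -0.18.

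The mean level over both arrays reached the median of all genes (3.87) in 8 of the 10 genes, and in Tpsab1 and Mrgprb2 it did not. Hdc reached it only through its control value, so its count here is a description. Among those 8, Hdc alone was at least 2-fold lower, against 1.15% of the 11090 genes at that level, and 5 were lower by 1.5-fold or more, against 5.08%. By 2-fold or more, 0 of the 8 were higher, against 0.271%. All 8 had lower values, against 47.6%. Differences as low as that of Tpsb2 were found in 1.35% of genes at that level, as low as that of Fcer1a in 2.26%, of Cpa3 in 4.04%, of Mcpt4 in 4.36% and of Kit in 7.36%. For Cma1 the share was 10.5% and for Ms4a2 25.7%, so the smaller differences in this group are common ones. Without Hdc, the median log2 difference of the other 9 was -0.62.

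Other mast cell genes, from lists chosen with earlier results of these data known, were less uniform. Of 20 measured genes of granule formation and storage, 14 read lower (70%, against 47.9% of all genes) and 6 higher. The median was -0.06. With the floor 2 were at least 2-fold lower, against 0.609% of all genes. The 2 were Tph1, the gene of the serotonin-forming enzyme (4.98 in control and 3.50 with ZAG, 2.79-fold lower), and Srgn, the gene of the proteoglycan core serglycin (7.95 and 6.92, 2.04-fold lower), which other leukocytes make too. In this list Slc18a2, the gene of the vesicular transporter that loads histamine, was 0.45 higher (3.77 and 4.22), and Vamp8, the gene of a granule fusion protein, 0.23 higher. Differences nearer to 0 than 0.244, as in Vamp8 and in genes of the lists below, are within the SD between probes of 1 gene. The biosynthetic gene Hdc and the transporter gene Slc18a2 thus had opposite signs in the deposited values. The control value of Slc18a2 and the ZAG value of Tph1 are below the 99th percentile gauge of 4.10. With that floor both differences would be smaller.

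In the list of connective tissue mast cell genes, 12 of 17 measured were lower (70.6%, against 47.9% of all genes). With the floor 3 were at least 1.5-fold lower, against 2.79% of all genes, and the median was -0.11. Mrgprb1, a relative of Mrgprb2, was at 5.52 in control and 4.77 with ZAG, 1.68-fold lower, and so was further from 0 than Mrgprb2. The serotonin transporter gene Slc6a4 was at 5.05 and 4.36, 1.62-fold lower. On the other side Slc45a3 was 0.58 higher, and Pdcd1lg2 had 2.61 and 3.33, the former below the gauge. Gata2, the gene of the factor named above, differed by -0.18 (3.66 and 3.48).

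The genes downstream of the IgE receptor were mostly lower by small amounts. Of 23 measured, 20 read lower (87%, against 47.9% of all genes), with a median of -0.18. By 1.5-fold or more 3 were lower, against 2.79% of all genes, and by 2-fold 0. After Fcer1g, the adaptor gene Lcp2 had a log2 difference of -0.76, while the linker gene Lat had 0.23 and the regulatory kinase subunit gene Pik3r1 0.11. The 9 genes of inhibitory receptors included 2 at least 2-fold lower, against 0.609% of all genes. They were Lilrb4a (8.42 and 6.91, 2.86-fold) and the IgG receptor gene Fcgr2b (7.81 and 6.73, 2.11-fold), both also expressed by macrophages. In that list Pirb was 0.16 higher, Siglece had -0.08 and the median was -0.08. From the 75th percentile of level upward it was -1.29, which rests on Fcgr2b and Lilrb4a only. Many genes of both lists are also expressed by other leukocytes.

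Genes that receive, carry or remove histamine had both signs, with a share of lower values near that of all genes. Of 10 measured, 4 were lower (40%, against 47.9% of all genes) and 6 higher. With the floor 0 were 1.5-fold apart in either direction, and the median was 0.07, against 0.01 for all genes. In 3 of the 10 neither array reached the gauge. Among the 7 others 2 were lower and 5 higher. The receptor gene Hrh1 read 3.93 in control against 3.80 with ZAG, while Hrh2 and Hrh4 stayed under the gauge on each array. Hnmt, the gene of the enzyme that methylates histamine, was 0.20 higher (4.64 and 4.84). Aldh7a1, an aldehyde dehydrogenase gene, had -0.10, and the amine transporter gene Slc29a4 was 0.21 higher. The differences of Hrh1, Hnmt, Aldh7a1 and Slc29a4 are each within the SD between probes of 1 gene.

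Growth and priming factors of mast cells fell on both sides. Kitl, the gene of stem cell factor, was 0.14 higher (5.54 in control and 5.68 with ZAG), so ligand and receptor had opposite signs, though the difference of Kitl is within the SD between probes of 1 gene. In the list of Kit signalling, which includes Kitl, 9 of 12 measured genes were lower (75%, against 47.9% of all genes). The median was -0.24. The differences ran from -0.55 in the adaptor gene Sh2b3 and -0.45 in the ubiquitin ligase gene Cbl to 0.11 in Pik3r1 and 0.14 in Kitl. Of 16 measured genes of mast cell cytokines and their receptors, 11 read lower (68.8%, against 47.9% of all genes). By 2-fold or more 3 were lower, against 0.609% of all genes, and the list median was -0.11. From the 75th percentile of level upward it was -1.18, which rests on Il33, Il4ra and Tgfb1 only. Il33, the gene of an alarmin that activates mast cells, had -1.71, Il4ra had -1.18, and Il9r was at 3.04 and 3.71, the former under the gauge and so at least 1.46-fold higher with ZAG. Among 13 measured transcription factor genes 8 were lower (61.5%, against 47.9% of all genes), with a median of -0.06. They ran from Runx1 (-0.59) and Spi1 (-0.46) to Tal1 (0.42) and Hes1 (0.18).

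**Figure D3:**
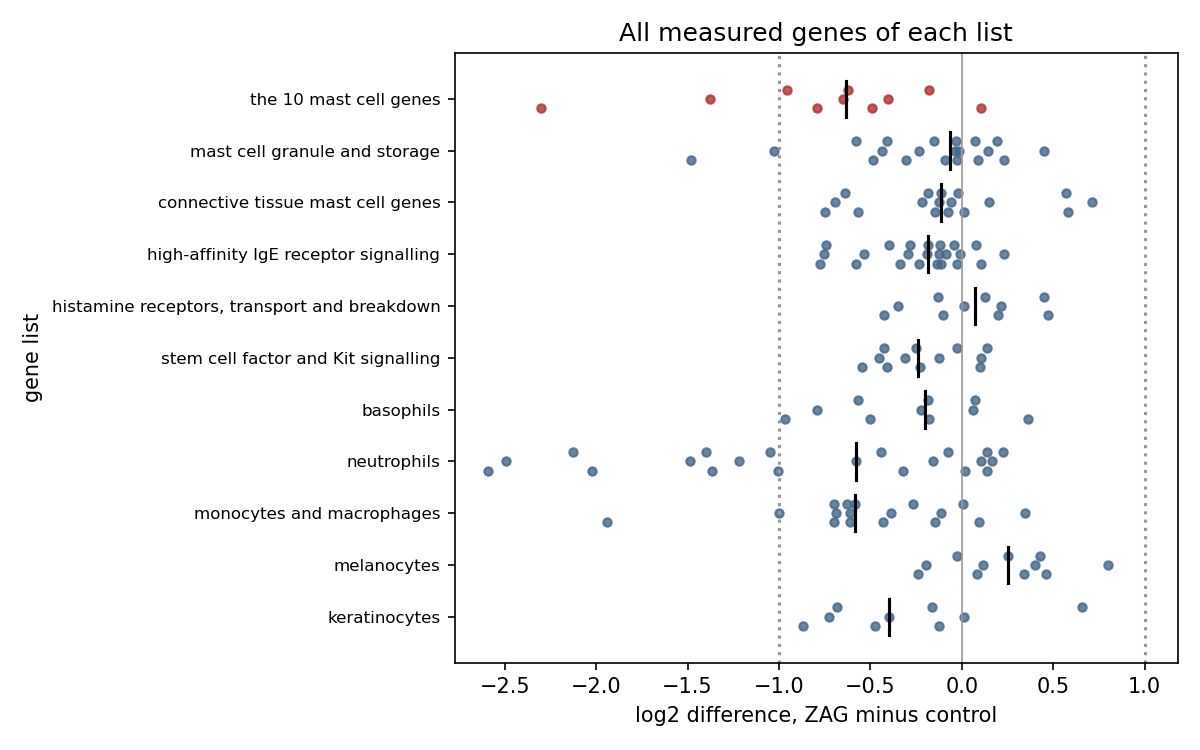
Log2 difference (ZAG minus control) of single genes, as points, in the 10 mast cell genes (red) and 10 other lists (blue), for all measured genes before any floor. Black bars are medians and dotted lines mark 2-fold. The medians are -0.64 for the mast cell genes, -0.58 for neutrophil genes, -0.58 for macrophage genes and 0.25 for melanocyte genes. Over genes above the gauge on at least 1 array they were -0.64 for the mast cell genes, -1.22 for neutrophil genes and -0.60 for macrophage genes. Some genes pass that filter through 1 array only, so these medians are descriptions.

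Markers of other cells that express some of these genes moved as well. In the neutrophil list 15 of 21 measured genes read lower (71.4%, against 47.9% of all genes). With the floor 9 were at least 2-fold lower, against 0.609% of all genes. The list had a median of -0.58 (-0.08 with levels raised to the 99th percentile gauge). Mean log2 levels over the list were 4.92 in control and 4.09 with ZAG. Of the list's 15 genes above the gauge on at least 1 array, 13 were lower and 2 higher, and their median was -1.22. Retnlg, Trem1 and Clec4e passed that filter only through the control value, and Mpo only through the ZAG value. That median is therefore a description. The receptor genes Clec4e (5.19 and 2.60) and Trem1 (5.47 and 2.98) were, like Hdc, above the gauge in control and below it with ZAG. The neutrophil-defining genes Ly6g, Ngp, Camp and Elane were below the gauge on both arrays, while Prtn3 was 0.14 higher, less than the SD between probes, and Mpo was at 3.09 and 3.25, the former under the gauge. Several other genes of the list lay above the gauge on both arrays and were lower with ZAG. Among them were Cxcr2 (6.71 and 5.66), Csf3r (5.23 and 4.01) and S100a8 (9.23 and 7.84). Macrophage genes were lower in 14 of 17 (82.4%, against 47.9% of all genes). Their median was -0.58 and their mean levels were 6.32 and 5.83. Log2 differences were -1.94 in Cd14, 0.34 in Ccr2 and 0.09 in Adgre1. The integrin gene Itgam was at 5.84 and 4.84. The part of these cells in the Hdc, Fcer1g and Srgn values was not tested.

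Basophils share Hdc, Fcer1a and Ms4a2 with mast cells. Their defining protease genes Mcpt8 (2.86 and 2.36) and Prss34 (2.25 and 2.32) and the receptor gene Cd200r3 (2.75 and 2.18) stayed under the gauge on each array. Of the 8 genes of the basophil list that are not among the 10, 5 were lower (62.5%, against 47.9% of all genes). Their median was -0.20, and their mean log2 level was 4.21 in control against 3.97 with ZAG. The integrin gene Itga2, also a keratinocyte gene, had -0.97, Il3ra was 0.36 higher and Cebpa 0.06 higher. All 8 measured eosinophil genes were below the gauge on both arrays. Keratinocyte genes marked the tissue as skin, with a mean level of 9.40 in control and 9.09 with ZAG. In this list 7 of 9 were lower (77.8%, against 47.9% of all genes). Differences ran from -0.87 in Itgb4 and -0.73 in Krt14 to 0.66 in Krt15 and 0.01 in Krt10.

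The genes nearest to Hdc in their pair of deposited log2 values, by Euclidean distance over the 2 arrays, were Trem1 (distance 0.18), Slfn4 (0.19), Fgf23 (0.40), Tmprss11a (0.49) and Ccl3 (0.49). Nearest to the mean pair of the 5 proteases (6.94 and 6.14) were Snora69 (0.012), Enah (0.033) and Plek (0.038). With 2 points per gene such likeness is a description of values and not a shared pattern. None of the 10 mast cell genes was among the 5 nearest to Hdc.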

How the data were processed

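Skin RNA was labelled with biotin and hybridised to Affymetrix arrays, per the labels' protocols, and the deposited table gives 1 log2 value per probe and array for 33793 probes. The log2 scale was inferred from the values (0.866 to 13.2), and no source used here gives the background correction, normalization or software. The deposited column medians were 3.33 in control and 3.36 with ZAG. By the platform annotation 23521 probes had a single symbol, 1814 had several and 8458 had none, and only the first kind was used. Probes of 1 gene were averaged (1082 genes had several), which gave 22180 genes, and ZAG minus control was taken. With 1 array per group there is no replicate error, and array number limits the precision.

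The 10 genes, the 19 lists and the naming rule were chosen with earlier results of these data known. The rule names the 10, from each list the 2 lowest and 2 highest differences above the gauge on at least 1 array, the defining basophil and neutrophil genes, and the nearest genes. Other list members named were chosen after their values were seen. List counts of 2-fold and 1.5-fold genes use the gauge as floor. Alternatives were 3 rescalings (loess span 0.3), the brightest probe, probes with several symbols, other level filters, other gauges and 1.5-fold. The computation was tested on simulated data with known shifts. Computation used pandas 2.3.3 and numpy 2.4.6 under Python 3.11.15, loess statsmodels 0.14.6, and figures matplotlib 3.10.9.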

Additional observations from a re-analysis of the deposited data

How the results depend on the processing

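Rescaling by median centring, quantile normalization or loess moved no member difference by more than the SD of 0.244 between probes of 1 gene. The brightest probe and adding probes with several symbols could not move any. Each member has 1 probe, and no probe with several symbols names a member, so these settings return the deposited values. Of 80 member differences under these settings and the other gauges, 3 moved further, all under a gauge, and 0 reversed. A reversal was counted only where the deposited difference was at least 2-fold, as in Hdc and Tpsab1. Raising levels to a gauge cannot change a sign, so the count of 0 was largely fixed by the definition. With the gauge at its 99th percentile Hdc had -1.36 and its gap to the protease median was -0.734. Tpsab1 had -1.03 and -0.0989 with the 95th and 99th percentile gauges. The count of members at least 2-fold lower, 1 at or above the median level, was 2 with no filter on level, 0 among genes from the 75th percentile of level upward and 5 at 1.5-fold. Of the 11090 genes whose mean level reached the median, 128 were 2-fold lower and 30 higher, and at 1.5-fold 563 were lower and 275 higher. From the 75th percentile upward 62 were 2-fold lower and 23 higher. Over all genes, without a filter on level, 160 were 2-fold lower and 46 higher. These choices by themselves change how many genes can count. Of 166 list medians 6 moved. From the 75th percentile of level upward they were -1.29 for inhibitory receptors (-0.08 over all measured), -1.18 for cytokines and their receptors (-0.11), -1.05 for neutrophils (-0.58), -0.49 for Kit and Mrgprb2 (-0.19) and 0.063 for basophils (-0.20), since each keeps fewer genes. Of these, -0.49 is the value of Kit alone and 0.063 that of Cebpa alone. The -1.29 rests on Fcgr2b and Lilrb4a only, and the -1.18 on Il33, Il4ra and Tgfb1 only. With the 99th percentile gauge that of neutrophils was -0.0767. No paired analysis was possible because each group has 1 array, and no replicate could be left out. Levels near the gauge limit Hdc, Tpsab1 and Mrgprb2.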

Other observations

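Some genes of the lists were read only, or also, by probes that carry several gene symbols and were left out of the comparison. A probe shared by Lilr4b and Lilrb4a read 6.35 in control against 4.70 with ZAG, which is -1.65 on the log2 scale, beside -1.51 for the probe of Lilrb4a alone. A probe shared by Krt5 and Krt6a, keratins of basal and of activated keratinocytes, was at 11.3 and 10.9. Probes shared by Cd300lf and its neighbours had -0.38 and -0.45, whereas the probe of Cd300lf alone was below the background gauge on both arrays. No probe with several symbols named any of the 10 mast cell genes.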
